A study of Mus musculus with 12 samples.

Results

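The segments described here are 7 alpha J segments of the mouse T cell receptor (TCR), TRAJ40, TRAJ42, TRAJ43, TRAJ45, TRAJ47, TRAJ48 and TRAJ49. They were chosen by the J segment named for each assembled alpha (TRA) chain, and they were carried by 3412 of 24173 TRA contigs in 6 TCR libraries (14.1%). TRAJ48 was named on 927 contigs, TRAJ49 on 618, TRAJ42 on 551, TRAJ40 on 497, TRAJ45 on 325, TRAJ43 on 312 and TRAJ47 on 182. TRAJ44, which lies between TRAJ43 and TRAJ45, had 250 contigs and was not among the segments chosen, and 0 contigs named TRAJ41 or TRAJ46. The libraries came from CD45+ cells sorted from subcutaneous tumours of the mouse colon carcinoma line MC38, in a form labelled as lacking p53 and as carrying a p53 substitution whose notation differs between labels. The hosts were C57BL/6J mice of 6 to 8 weeks, so their own T cells were sampled. Each tumour received a single intratumoral dose of 40 µg on day 10, of LNP-Ctrl in 3 libraries and of LNP-P20-mAb in the other 3, where P20-mAb is the antibody that the series tests against mutant p53. Of 12 samples in the series, the 6 for gene expression are not used here, and the stated question was how tumour-infiltrating T and NK cells differ between the treatments.

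An alpha chain is made when a developing thymocyte joins 1 V segment (TRAV) to 1 J segment (TRAJ), with bases trimmed and added at the joint. The joint and its flanks form the CDR3, the loop that reads the peptide held by an MHC molecule, and the J segment supplies the end of that loop. J segments lie in a row and are numbered downwards from the V side towards the constant region. Rearrangement is known to start with J segments near the V side and with the nearest V segments, and later rounds on the same allele replace the first joint by one between more distant segments. Both alleles rearrange, so that a mature T cell can carry a pair of productive alpha chains. In RefSeq (GRCm38.p6) all 7 segments matched by symbol, and TRAJ49 was number 13 and TRAJ40 number 22 of 60 TRAJ genes counted from the V side.

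A cell here is a barcode with 1 beta (TRB) chain and 1 or 2 TRA chains, and a clonotype groups the cells of 1 library that have identical TRB bases and a TRA chain in common. There were 19115 such cells in 10624 clonotypes, of which 3013 cells (15.8%) and 1923 clonotypes (18.1%) carried at least 1 of the 7 segments. Libraries held 2016 to 3923 cells, and a segment with 0 cells would be allowed a share of up to 0.149% in the smallest. Library pairs had 11 to 29 cell barcodes in common, at most 0.754% of the smaller library, and 1 barcode carried the same receptor in both. LNP-P20-mAb 1 and 2 carried many of the same clones. Of the TRA and TRB pairs with these J segments, 18 occurred in more than 1 library, and all 18 were in LNP-P20-mAb 1 and 2 and in no other library. They made up 82.9% of the 467 cells counted by segment in LNP-P20-mAb 1 and 81.5% of 276 in LNP-P20-mAb 2, with 6 pairs using TRAJ42, 5 TRAJ49, 3 TRAJ40, 2 TRAJ43, 2 TRAJ48 and none TRAJ45 or TRAJ47. Values with these 2 libraries pooled are therefore given where pooling made or ended a call of a member, and for cell shares where it moved the difference most. Nothing in the labels ties each library to its own animal, so p-values here cover only the spread among libraries, which may be technical.

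The end of the CDR3 that each segment supplies is shown first, since it tells the 7 apart in every receptor below. Each line is the longest run of bases, ending with the last codon of the CDR3, that at least 50% of the distinct chains of that segment shared, and capitals mark the bases shared by at least 90%.
TRAJ49: acaCGGGTTACCAGAACTTCTATTTT
TRAJ48: actATGGAAATGAGAAAATAACTTTT
TRAJ47: ggaCTATGCAAACAAGATGATCTTT
TRAJ45: tacaGAAGGTGCAGATAGACTCACCTTT
TRAJ43: ataaCAACAATGCCCCACGATTT
TRAJ42: tctGGAGGAAGCAATGCAAAGCTAACCTTC
TRAJ40: ataCAGGAAACTACAAATACGTCTTT
Read in whole codons, these ends give TGYQNFYF for TRAJ49, YGNEKITF for TRAJ48, DYANKMIF for TRAJ47, TEGADRLTF for TRAJ45, NNNAPRF for TRAJ43, SGGSNAKLTF for TRAJ42 and TGNYKYVF for TRAJ40. TRAJ42 had the longest shared end, 30 bases, and TRAJ43 the shortest, 23 bases. All 7 ends closed with a phenylalanine codon, ttc in TRAJ42 and ttt in the other 6, and the lower-case first bases are those that over 10% of chains lacked.

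When each clonotype was counted once, the 7 segments differed about 3-fold in use, and none was called between the treatments. TRAJ49 was the most used, in 4.39% ± 0.755 of clonotypes (SD, n = 6 libraries), and ranked number 6 of 43 TRAJ segments. TRAJ40 followed at 3.29% ± 0.524, TRAJ48 at 2.73% ± 0.832, TRAJ42 at 2.62% ± 0.416, TRAJ45 at 2.16% ± 0.364, TRAJ43 at 1.92% ± 0.730 and TRAJ47 at 1.46% ± 0.241, which ranked number 34. Each neighbour in this order differed from the next by less than the larger of their SDs, apart from TRAJ49 and TRAJ40 and from TRAJ42 and TRAJ45. The median of the 7 was 2.62%, compared with 2.42% over all 43 TRAJ. In edgeR's quasi-likelihood test 0 of 7 members were called (1 below an unadjusted p of 0.05), as in DESeq2. The background was 3.87% of the 155 V and J segments tested (6 calls, and 29 below an unadjusted p of 0.05). The members' median log2 difference was 0.070 and that of all TRAJ 0.029.

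TRAJ43 had the lowest estimate of the 7. It was used by 2.78%, 1.71% and 2.66% of clonotypes in LNP-Ctrl 1, 2 and 3 and by 2.14%, 1.00% and 1.26% in LNP-P20-mAb 1, 2 and 3. The highest LNP-P20-mAb library lay above the lowest LNP-Ctrl library, and the log2 difference of -0.71 ± 0.32 (SE) was not called (edgeR adjusted p = 0.247). TRAJ49 was used by 4.39%, 4.43% and 2.96% of LNP-Ctrl clonotypes and by 5.16%, 4.75% and 4.65% of LNP-P20-mAb clonotypes. All 3 LNP-P20-mAb libraries were above all 3 LNP-Ctrl libraries, which was so for 1 of 7 members and for 14.0% of all 43 TRAJ, and the log2 difference of 0.31 ± 0.20 was not called (edgeR adjusted p = 0.429). TRAJ48 was used by 2.89%, 2.88% and 2.69% of LNP-Ctrl clonotypes and by 1.78%, 2.00% and 4.14% of LNP-P20-mAb clonotypes. Its LNP-Ctrl libraries lay close together, with LNP-P20-mAb 1 and 2 below them and LNP-P20-mAb 3 above, at a log2 difference of 0.10 ± 0.25 (edgeR adjusted p = 0.928). TRAJ40 (0.06 ± 0.21), TRAJ42 (-0.02 ± 0.23), TRAJ45 (0.07 ± 0.25) and TRAJ47 (0.25 ± 0.32) had edgeR adjusted p-values of 0.783 to 0.980. TMM scaling and DESeq2 turned the sign of the TRAJ42 estimate (0.04 and 0.06).

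By cells the picture was different, since large clones weigh in by their size. TRAJ48 was carried by 4.62%, 2.40% and 2.49% of cells in LNP-Ctrl 1, 2 and 3 and by 8.95%, 9.13% and 2.60% in LNP-P20-mAb 1, 2 and 3. LNP-P20-mAb 1 and 2 stood far above the rest and LNP-P20-mAb 3 lay within the LNP-Ctrl range. The means were 3.17% for LNP-Ctrl and 6.89% for LNP-P20-mAb, a difference of 3.72 percentage points that the exact permutation test over 20 assignments did not call (two-sided p = 0.2, adjusted over all 43 TRAJ p = 0.391). Such an exact permutation test of 3 against 3 libraries cannot go below p = 0.1. The difference was 5.87 percentage points without LNP-P20-mAb 3, and 2.61 to 4.45 without any 1 of the other libraries. It was 2.64 with LNP-P20-mAb 1 and 2 pooled.

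The other 6 segments had a lower mean share of cells in LNP-P20-mAb libraries. TRAJ49 was on 3.57%, 3.77% and 3.26% of LNP-Ctrl cells and on 1.62%, 1.14% and 2.78% of LNP-P20-mAb cells. TRAJ43 was on 1.56%, 1.45% and 2.81% of LNP-Ctrl cells and on 0.766%, 0.992% and 0.739% of LNP-P20-mAb cells. For these 2 of 7 members every LNP-P20-mAb library lay below every LNP-Ctrl library (exact permutation p = 0.1 each, adjusted p = 0.269). The same held for 32.6% of all 43 TRAJ (14 segments), and 32 of 43 had a lower mean in LNP-P20-mAb, where clonotypes of 20 or more cells held 33.1% to 71.8% of all cells against 1.90% to 31.5% in LNP-Ctrl. TRAJ49 thus had the larger share of clonotypes and the smaller share of cells in LNP-P20-mAb libraries. TRAJ40 was on 1.56%, 3.01% and 4.36% of LNP-Ctrl cells and on 0.613%, 0.744% and 2.74% of LNP-P20-mAb cells, with overlap. TRAJ45 was on 1.41%, 1.94% and 2.22% and on 0.337%, 0.347% and 2.43%, and TRAJ47 on 0.810%, 1.50% and 0.910% and on 0.306%, 0.298% and 0.950%. In all of TRAJ40, TRAJ45 and TRAJ47 the low libraries were LNP-P20-mAb 1 and 2, while LNP-P20-mAb 3 lay within the LNP-Ctrl range or above it. TRAJ42 was on 2.01%, 2.50% and 3.59% of LNP-Ctrl cells and on 1.72%, 1.04% and 3.59% of LNP-P20-mAb cells. With LNP-P20-mAb 1 and 2 pooled, the difference in mean share moved from -0.58 to -0.17 percentage points for TRAJ42 and from -0.82 to -0.47 for TRAJ45.

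**Figure D1:**
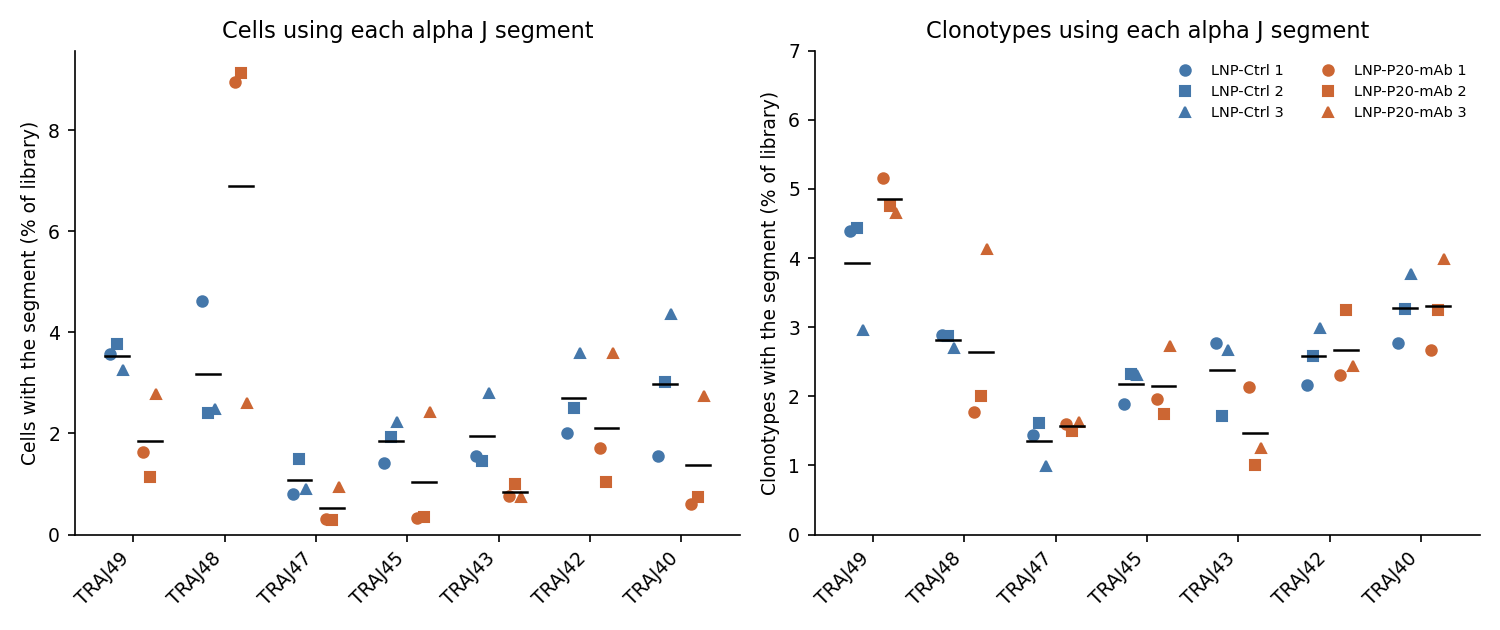
Share of cells (left) and of clonotypes (right) with each segment, in percent of a library, with 1 point per library, colour for the treatment and bars for the mean of 3 libraries. TRAJ48 reached 8.95% and 9.13% of cells in LNP-P20-mAb 1 and 2 with 1.78% and 2.00% of their clonotypes.

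A few clones held many of the cells with these segments. Over the 6 libraries 4 clonotypes with these segments held 50 or more cells and 8 held 20 or more, with a clone shared by LNP-P20-mAb 1 and 2 counted in each. The largest joined TRAV9-2 and TRAJ48 (alpha CDR3 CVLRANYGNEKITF) with TRBV15 and TRBJ1-5 (beta CDR3 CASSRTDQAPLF). In LNP-P20-mAb 1 it held 264 cells, or 8.09% of cells there (7.18% to 9.08% by the exact Clopper-Pearson method at 95%, for counting error only), and in LNP-P20-mAb 2 it held 162. That was 90.4% and 88.0% of the TRAJ48 cells of these libraries. Next came a TRAV16 and TRAJ48 clone with TRBV12-2 in LNP-Ctrl 1, with 102 cells and 66.2% of the TRAJ48 cells there. A TRAV6-7-DV9 and TRAJ42 clone with TRBV13-3 held 50 cells in LNP-P20-mAb 3, 49.0% of its TRAJ42 cells. The alpha CDR3 bases of these 3 receptors and of the largest clone of each remaining segment are given below, since these receptors carried the large shares of cells. Capitals mark the end that matches the bases most common at the end of that segment's chains.
TRAJ48 clone of LNP-P20-mAb 1 and 2: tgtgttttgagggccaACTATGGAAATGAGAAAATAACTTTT
TRAJ48 clone of LNP-Ctrl 1: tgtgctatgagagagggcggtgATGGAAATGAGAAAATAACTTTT
TRAJ42 clone of LNP-P20-mAb 3: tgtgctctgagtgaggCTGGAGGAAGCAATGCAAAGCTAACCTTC
TRAJ49 clone of LNP-Ctrl 1: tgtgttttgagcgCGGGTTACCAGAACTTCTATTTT
TRAJ43 clone of LNP-P20-mAb 1 and 2: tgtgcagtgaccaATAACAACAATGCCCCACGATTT
TRAJ45 clone of LNP-P20-mAb 3: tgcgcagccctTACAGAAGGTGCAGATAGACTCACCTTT
TRAJ40 clone of LNP-Ctrl 3: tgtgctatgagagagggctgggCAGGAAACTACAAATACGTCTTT
TRAJ47 clone of LNP-Ctrl 2: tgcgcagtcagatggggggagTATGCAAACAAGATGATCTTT
Of these, the TRAJ49 clone (TRAV9-2, TRBV26) held 30 cells, 25.2% of the TRAJ49 cells of its library. The TRAJ45 clone (TRAV3N-3, TRBV12-1) held 26 cells, 37.7% of the TRAJ45 cells. The TRAJ40 clone (TRAV16N, TRBV13-1) held 20 cells, 12.3% of the TRAJ40 cells. The TRAJ47 clone (TRAV3-3, TRBV2) held 7 cells, 11.9% of the TRAJ47 cells. The TRAJ43 clone (TRAV7D-3, TRBV5) held 14 and 17 cells in the pair LNP-P20-mAb 1 and 2, and in the latter it made up 85.0% of the TRAJ43 cells. TRAV names with D or N mark near-identical copies, so the copy named is uncertain.

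**Figure D2:**
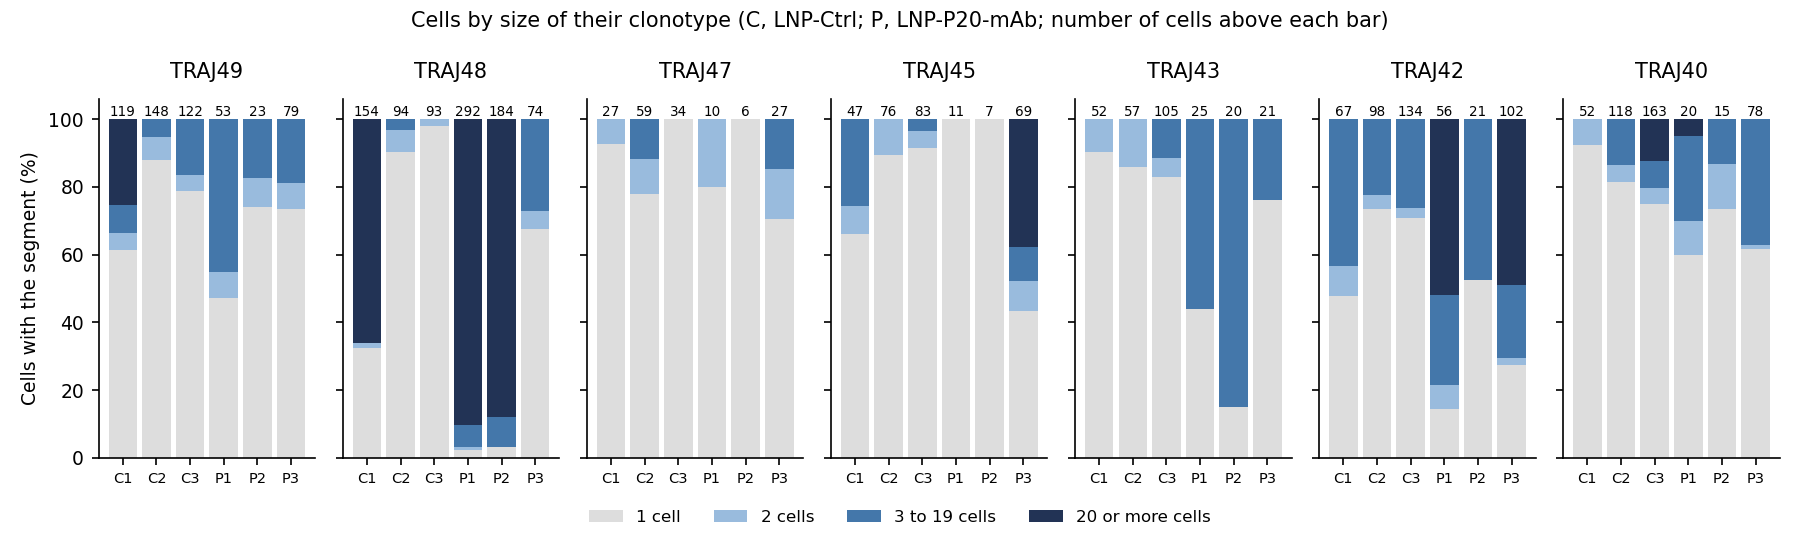
Cells with each segment by the size of their clonotype, in percent of the cells with that segment in a library, with 1 bar per library and the number of cells above it. TRAJ48 cells of LNP-P20-mAb 1 and 2 were to 90.4% and 88.0% in clonotypes of 20 or more cells, and TRAJ47 cells were mostly in clonotypes of 1 cell in all 6 libraries.

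Among cells with any of the 7 segments, those in clonotypes of 2 or more cells made up 25.2% ± 14.4 for LNP-Ctrl and 68.3% ± 20.9 for LNP-P20-mAb (SD, n = 3 each), beside 29.5% ± 19.6 and 76.4% ± 15.6 of all cells. By segment this share went from 26.4% ± 35.8 to 75.6% ± 37.4 for TRAJ48, from 36.0% ± 14.2 to 68.6% ± 19.3 for TRAJ42 and from 13.6% ± 3.78 to 54.9% ± 30.6 for TRAJ43. It went from 17.2% ± 8.82 to 35.0% ± 7.29 for TRAJ40 and from 24.0% ± 13.5 to 35.2% ± 15.3 for TRAJ49. It went from 17.7% ± 14.2 to 18.8% ± 32.6 for TRAJ45 and from 9.81% ± 11.2 to 16.5% ± 15.1 for TRAJ47. In LNP-P20-mAb 1 and 2, where most cells were in expanded clones, all 11 and all 7 TRAJ45 cells were single-cell clonotypes. Of all clonotypes there, 456 of 562 and 306 of 400 were also single-cell, so few expanded ones could be seen among 11 and 7. LNP-P20-mAb 1 had 18 TRAJ45 contigs, of which these 11 cells were kept. TRAJ45 cells of LNP-P20-mAb 3 were different, with 56.5% in clonotypes of 2 or more cells.

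Within libraries, clonotypes of 3 or more cells (468 in all) were compared with single-cell clonotypes (9784), each counted once. TRAJ42 had the one positive estimate among the 7, and it was not called. It was used by 4.49%, 6.90% and 11.9% of expanded clonotypes in LNP-Ctrl 1, 2 and 3 and by 4.23%, 2.70% and 3.81% in LNP-P20-mAb 1, 2 and 3. Among single-cell clonotypes it was used by 1.94%, 2.48% and 2.88% in LNP-Ctrl and by 1.75%, 3.59% and 2.37% in LNP-P20-mAb libraries. Expanded clonotypes were thus higher in 5 of 6 libraries and lower in LNP-P20-mAb 2. The log2 difference of 1.14 ± 0.37 did not pass the threshold (edgeR adjusted p = 0.0611) and rested on 24 expanded clonotypes. It was called with LNP-P20-mAb 1 and 2 pooled (1.30, edgeR adjusted p = 0.0336) and without LNP-P20-mAb 2 (1.34, edgeR adjusted p = 0.0394). It was not called in DESeq2 (0.90, adjusted p = 0.387), with clonotypes of 2 or more cells as expanded (0.75, edgeR adjusted p = 0.153) or without any 1 of the other 5 libraries (edgeR adjusted p = 0.0902 to 0.262).

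The other 6 segments had negative estimates, none of them called. TRAJ47 was on 0.350% ± 0.546 of the expanded and on 1.58% ± 0.310 of the single-cell clonotypes (SD, n = 6 libraries), and was lower in 6 of 6 libraries (log2 difference -1.86 ± 0.90, edgeR adjusted p = 0.270). Only 2 TRAJ47 clonotypes had reached 3 cells, against 138 single-cell clonotypes. TRAJ47 was on 0 of 89 and 42 expanded clonotypes in LNP-Ctrl 1 and 3, and on 0 of 71 and 74 in LNP-P20-mAb 1 and 2. A count of 0 could well occur among so few, so the direction in these libraries carries little weight. TRAJ49 was used by 2.75% ± 1.21 and 4.63% ± 0.966, and was lower in 5 of 6 libraries (-0.87 ± 0.39, edgeR adjusted p = 0.250). TRAJ43 had 4 expanded and 213 single-cell clonotypes (-1.18 ± 0.68, edgeR adjusted p = 0.354). TRAJ45 (-0.81 ± 0.58), TRAJ48 (-0.46 ± 0.46) and TRAJ40 (-0.27 ± 0.41) had edgeR adjusted p-values of 0.504 to 0.787. TRAJ48, which had the largest clone, counted 10 expanded and 289 single-cell clonotypes. The members' median log2 difference was -0.81 and that of all 43 TRAJ -0.00. In edgeR 0 of 7 members were called (3 below an unadjusted p of 0.05), as in DESeq2. The background was 2.58% of 155 segments called, with 24 below an unadjusted p of 0.05. The difference of this relation between treatments was called for 0 of 7 members, with a background of 0% of 155 segments in edgeR (2 below an unadjusted p of 0.05, members' adjusted p-values 0.966 to 1), and for 0 in DESeq2.

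Each segment was next compared with all other TRAJ for the V segment to which it was joined, with each distinct chain of a clonotype counted once and the library as a block. TRAJ49 joined TRAV5 more often and TRAV7 and TRAV12 less often than other TRAJ did, TRAJ42 joined TRAV6 more often and TRAJ48 joined TRAV8 less often. These were the 5 called of 68 pairs of a member and a TRAV family, 2 higher and 3 lower, and DESeq2 called 2 of the 5, those of TRAJ49 with TRAV5 and with TRAV7. Over all TRAJ, 3.66% of 383 pairs were called, 1.57% higher and 2.09% lower.

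TRAV5 was on 7.50%, 5.93% and 8.91% of TRAJ49 chains in LNP-Ctrl 1, 2 and 3 and on 13.3%, 15.8% and 6.35% in LNP-P20-mAb 1, 2 and 3. Other TRAJ chains carried TRAV5 at 2.98% ± 0.434 (SD, n = 6 libraries), below TRAJ49 in 6 of 6 libraries. The log2 ratio was 1.41 ± 0.27 (edgeR adjusted p = 0.000932) over 34 TRAJ49 chains, of which 33 used TRAV5-4. TRAV7 was on 6.25%, 5.19% and 2.97% of TRAJ49 chains in LNP-Ctrl and on 10.0%, 5.26% and 7.94% in LNP-P20-mAb libraries, against 12.7% ± 1.30 of other chains. All 6 libraries were below the other TRAJ (log2 ratio -1.14 ± 0.25, edgeR adjusted p = 0.00255). TRAV12 was on 29 of 428 TRAJ49 chains, lower in 5 of 6 libraries and higher in LNP-P20-mAb 2 (log2 ratio -0.85 ± 0.23, edgeR adjusted p = 0.0187). TRAV5 with TRAJ49 and TRAV7 with TRAJ49 were also called with LNP-P20-mAb 1 and 2 pooled, as was TRAV12 with TRAJ49 (edgeR adjusted p = 0.00516, 0.0100 and 0.0142). TRAV7 with TRAJ49 was not called without LNP-Ctrl 1 or without LNP-Ctrl 2 (edgeR adjusted p = 0.0680 and 0.150), and TRAV12 with TRAJ49 was not called without any 1 of the LNP-Ctrl libraries or without LNP-P20-mAb 3 (0.167 to 0.240). TRAV12 with TRAJ49 was also not called in DESeq2 (adjusted p = 0.141) or with chains of 3 or more UMIs (edgeR adjusted p = 0.0656). TRAV5 with TRAJ49 was called wherever enough chains were left to test it, in DESeq2 too (adjusted p = 0.0156).

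TRAV6 was on 7 of 39, 16 of 80 and 15 of 101 TRAJ42 chains in LNP-Ctrl libraries and on 5 of 14, 7 of 14 and 11 of 33 in LNP-P20-mAb libraries, or 28.6% ± 13.5 of chains over the 6 libraries (SD). That mean weighs small libraries like large ones, and over all chains together the share was 61 of 281 (21.7%). Other TRAJ carried TRAV6 on 13.7% ± 0.668 of chains. TRAJ42 was above them in 6 of 6 libraries, though in LNP-Ctrl 3, which had the most TRAJ42 chains, the shares were nearly equal (14.9% against 14.3%). The log2 ratio was 0.69 ± 0.19 (edgeR adjusted p = 0.0315) and was not called with LNP-P20-mAb 1 and 2 pooled (0.57, edgeR adjusted p = 0.140) or without any 1 of the 6 libraries (edgeR adjusted p = 0.107 to 0.231). Nor was it called in DESeq2 (0.93, adjusted p = 0.1002) or with chains of 3 or more UMIs (0.56, edgeR adjusted p = 0.240). TRAV8 was on 2 of 302 TRAJ48 chains and on 396 of 11562 other chains (log2 ratio -2.36 ± 0.46, edgeR adjusted p = 0.0410). Its share was lower in 6 of 6 libraries, but LNP-P20-mAb 1 and 2 had only 10 and 8 TRAJ48 chains. With TRAV8 on 2.48% and 2.04% of other chains there, their counts of 0 say little. TRAJ48 with TRAV8 was not called with LNP-P20-mAb 1 and 2 pooled (edgeR adjusted p = 0.0517) or without LNP-P20-mAb 2 (0.0592). It was too rare to test without any 1 of the other libraries or with chains of 3 or more UMIs. In DESeq2 the log2 ratio of TRAJ48 with TRAV8 was -1.45 (adjusted p = 0.389). Low shares of TRAV8 were not particular to TRAJ48. TRAV8 was also on 2 of 281 TRAJ42 chains (0.712%) and 3 of 237 TRAJ45 chains (1.27%), pairs too rare for the main test. Its share was 2.62% on TRAJ43 and 2.57% on TRAJ49. On TRAJ40 (4.71%) and TRAJ47 (4.79%) it was above that of other TRAJ (3.31% and 3.34%). The count of 5 fell to 0 without LNP-Ctrl 2 and to 1 to 3 without any other library, when fewer pairs could be tested.

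The most frequent TRAV family of the remaining segments was not called. It was TRAV14 for TRAJ40 (14.4% of chains against 9.35% in other TRAJ), TRAV16 for TRAJ47 (14.4% against 7.07%), TRAV12 for TRAJ48 (16.6% against 12.1%) and TRAV13 for TRAJ49 (13.1% against 9.09%). TRAJ45 had TRAV16 and TRAV9 at 12.7% each, and TRAJ43 had TRAV6 and TRAV7 at 14.4% each. TRAV16 was high on TRAJ47 in 6 of 6 libraries (log2 ratio 1.02 ± 0.25, edgeR adjusted p = 0.0912).

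**Figure D3:**
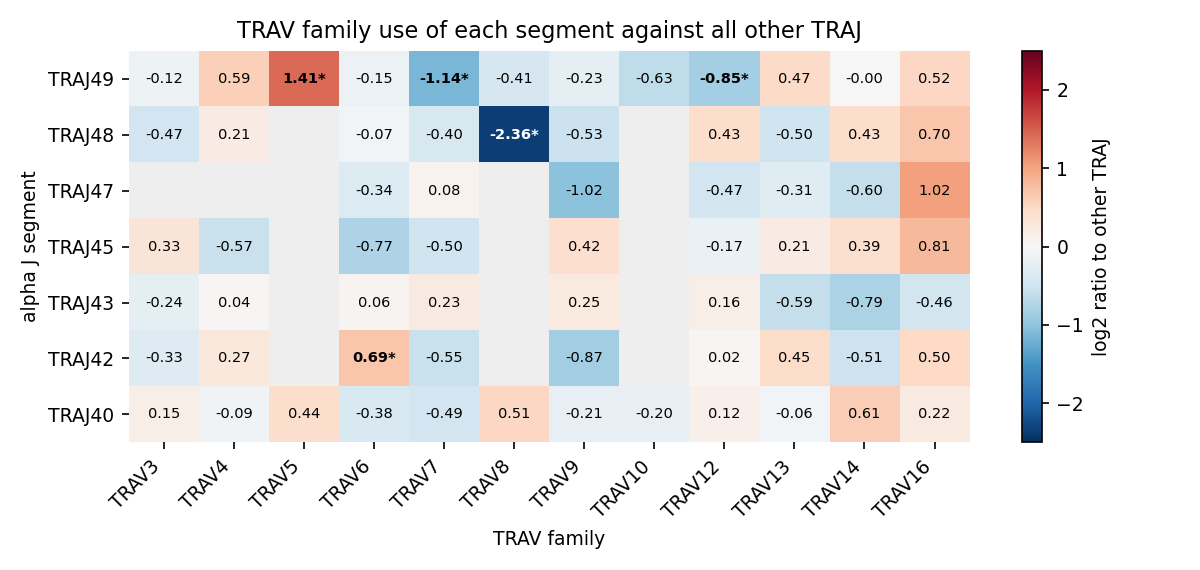
Log2 ratio of the use of each TRAV family by each segment to its use by all other TRAJ, from edgeR with the library as a block, with grey for pairs too rare to test and an asterisk for an adjusted p under 0.05. TRAJ49 with TRAV5 was highest at 1.41, and TRAJ48 with TRAV8 lowest at -2.36.

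The use of V segments by their position was described for the 7 segments without a test. TRAV17, TRAV18, TRAV19 and TRAV21-DV12 lie closest to the J cluster among the V segments measured here, and TRAV1 and TRAV2 lie farthest from it. The near V segments were on 98 of 1984 distinct chains with these J segments (4.94%), on 15.2% of chains with TRAJ50 to TRAJ58 and on 0.653% of chains with TRAJ2 to TRAJ39. Within the 7, TRAJ49 had 7.24% (95% exact Clopper-Pearson interval 4.97% to 10.1%), TRAJ48 4.97%, TRAJ47 6.16%, TRAJ45 5.06%, TRAJ43 4.80%, TRAJ42 4.27% and TRAJ40 2.22% (0.961% to 4.32%). The intervals of TRAJ49 and TRAJ40 did not overlap, and those of neighbouring segments did. The shares did not fall in step with the TRAJ number: TRAJ50 had 5.80%, below TRAJ49, and TRAJ35 and TRAJ38 had 5.75% and 3.64%, above TRAJ40. By library the share over the 7 was 7.60%, 5.03% and 4.94% for LNP-Ctrl. It was 1 of 102, 0 of 71 and 12 of 277 chains for LNP-P20-mAb. With TRAJ50 to TRAJ58 it was 16.8%, 16.3% and 16.2% for LNP-Ctrl. For LNP-P20-mAb 1, 2 and 3 it was 12.5% of 72, 14.3% of 49 and 10.2% of 147 chains with TRAJ50 to TRAJ58. Both lowest values over the 7 came from few chains, and why they were low was not tested. The far V segments were on 1 of 1984 chains with the 7 J segments, a TRAJ40 chain. They were on 0 of 1130 chains with TRAJ50 to TRAJ58 and on 115 of 8577 chains with TRAJ2 to TRAJ39 (1.34%).

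**Figure D4:**
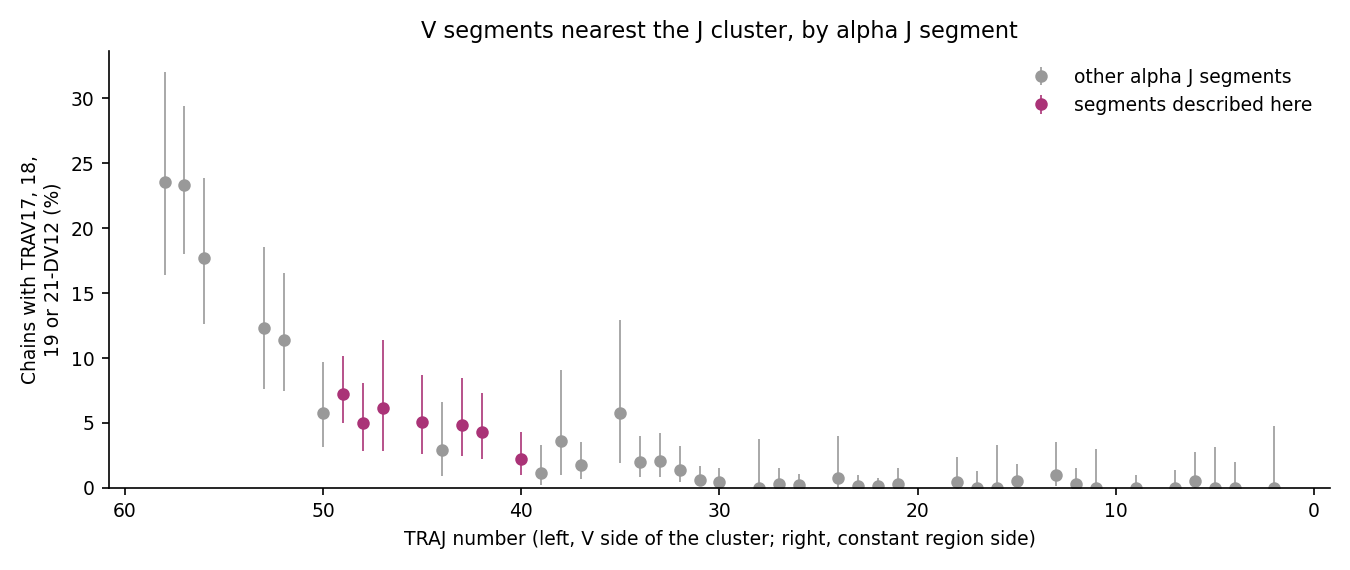
Share of distinct chains with TRAV17, TRAV18, TRAV19 or TRAV21-DV12 for each TRAJ, in percent, ordered by TRAJ number, with 95% exact Clopper-Pearson intervals. The 7 segments range from 7.24% for TRAJ49 to 2.22% for TRAJ40, and the intervals of neighbouring segments overlap.

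Of 358 clonotypes with 2 alpha chains of which at least 1 used any of the 7 segments, 80 (22.3%) had both from the 7. A pair of TRA chains was found in 31.8% of TRAJ42 clonotypes, 27.3% of TRAJ43, 20.4% of TRAJ47, 20.2% of TRAJ40, 19.9% of TRAJ48, 19.2% of TRAJ45 and 14.7% of TRAJ49 clonotypes. Over all clonotypes it was found in 1445 of 10624 (13.6%). A clonotype with 2 chains can use a given segment on either, which raises the share for any single segment above that. The 13.6% is therefore not a like baseline for a single segment, and a share above it does not show an excess. Counted by chain, so that each of the 80 clonotypes enters from both of its chains, the second chain used any of the 7 beside 160 of 438 chains of the 7 (36.5%) and beside 278 of 2452 chains of another TRAJ (11.3%). This share of chains by library was 42.5%, 33.0% and 40.0% for LNP-Ctrl, then 34.8%, 33.3% and 26.4% for LNP-P20-mAb, all above the shares for other TRAJ (9.09% to 14.6%). Barcodes with 2 TRB chains were left out, and in clonotypes of 2 or more cells the shares of chains were 16 of 38 (42.1%, from 8 clonotypes) and 22 of 232 (9.48%). One such clonotype in LNP-Ctrl 3, with TRBV3, carried TRAV10 and TRAJ40 in 10 of 10 cells and TRAV12-2 and TRAJ42 in 8. A chain on 1 cell of a clonotype was enough to count. In a TRBV13-1 clonotype of LNP-P20-mAb 1, TRAJ42 was on 29 of 29 cells and TRAJ40 on 1. The same clone entered again from LNP-P20-mAb 2, with TRAJ42 on 7 of 8 cells and TRAJ40 on 2. The median TRAJ number of the second chain was 47 beside TRAJ49, 43 beside TRAJ48, 41 beside TRAJ47, 44 beside TRAJ45, 42 beside TRAJ43, 38 beside TRAJ42 and 34 beside TRAJ40, and 26 beside other TRAJ. This comparison was made on counts of chains and was not tested across libraries.

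For the beta chains paired with these segments no difference from other receptors was called, and few were called for any TRAJ. In edgeR 0 of 96 pairs of a member and a TRBV segment were called (6 below an unadjusted p of 0.05) and 0 in DESeq2. The background was 0.413% of 484 pairs called, with 42 below an unadjusted p of 0.05. At so low a background, 0 of 96 does not show that the beta chains were alike. The most frequent beta segment was the one under the joint name of TRBV12-2 and TRBV13-2 for TRAJ40 (13.8%), TRAJ43 (10.4%), TRAJ45 (17.5%), TRAJ48 (9.74%) and TRAJ49 (10.6%). It was TRBV19 for TRAJ42 (10.6%) and TRBV3 for TRAJ47 (11.6%). The lowest p was that of TRAJ45 with the jointly named segment, on 42 of 240 receptors against 9.72% of others (log2 ratio 0.87 ± 0.28, edgeR adjusted p = 0.135).

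The length of the alpha CDR3 set the segments apart from each other more than the treatments did. Distinct TRAJ42 chains had the longest loops of the 7, at 14.6 residues on average (281 chains, number 8 of 43 TRAJ from the longest), and TRAJ43 chains the shortest, at 12.5 residues (229 chains, number 42). TRAJ45 had a mean of 14.0, TRAJ40 of 13.6, TRAJ48 of 13.6, TRAJ49 of 13.4 and TRAJ47 of 13.0 residues. Mean TRAJ42 lengths by library were 14.5, 14.4 and 14.8 residues for LNP-Ctrl, then 15.0, 14.6 and 15.0 for LNP-P20-mAb. Mean TRAJ43 lengths were 12.5, 12.7 and 12.3 residues for LNP-Ctrl, then 12.2, 11.8 and 12.6 for LNP-P20-mAb. The TRAJ42 mean was above the TRAJ43 mean in 6 of 6 libraries. Between treatments 0 of the 6 members tested in limma were called (0 below an unadjusted p of 0.05), with differences of -0.19 to 0.33 residues, and the background was 2.94% of 34 TRAJ. TRAJ43 could not be tested, since LNP-P20-mAb 2 had 4 distinct chains of it, under the minimum of 5. The TRAJ42 difference was 0.33 ± 0.18 residues (limma adjusted p = 0.462).

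**Figure D5:**
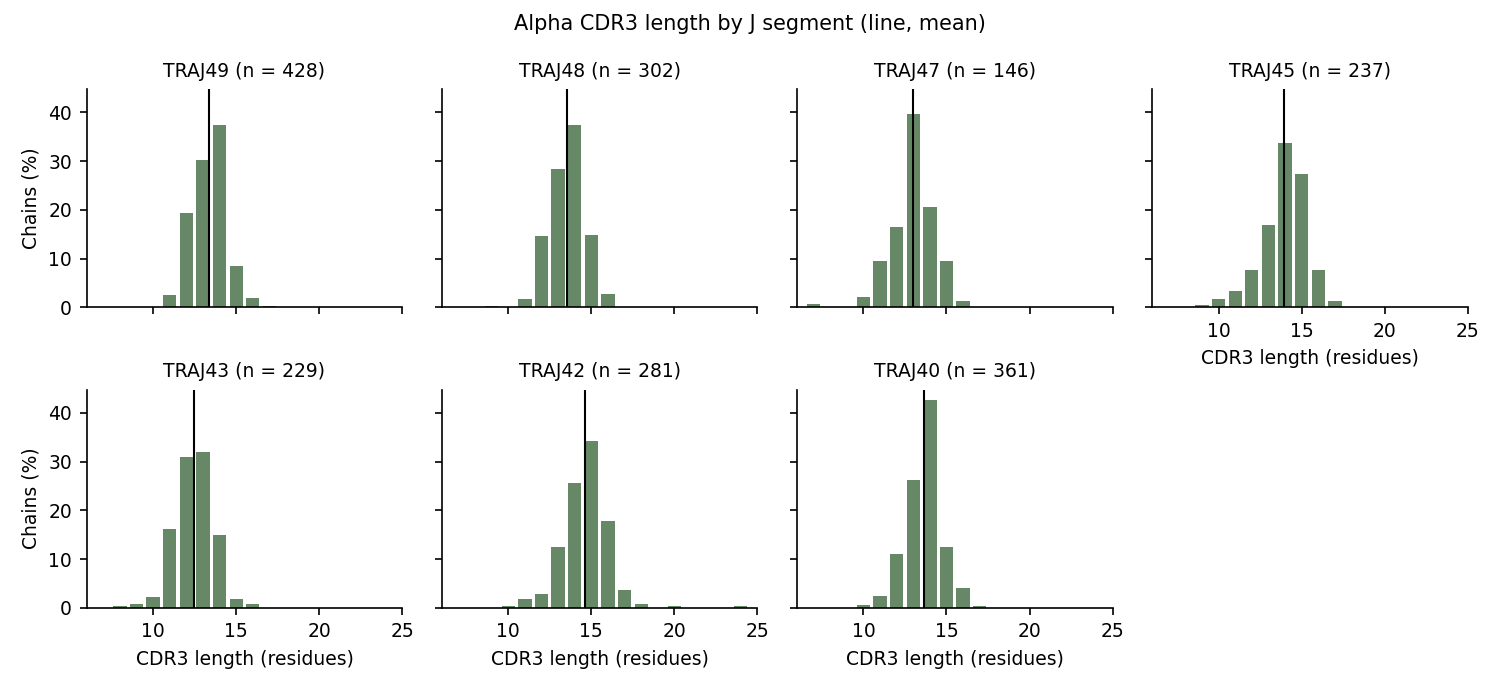
Alpha CDR3 length in residues of distinct chains, in percent of the chains of each segment, with a line for the mean. The TRAJ42 chains centre on 15 residues and the TRAJ43 chains on 12 and 13.

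Some alpha chains of these segments recurred between libraries with different beta chains. By TRAV family, TRAJ and CDR3 residues, 116 of 1783 distinct chains with the 7 segments (6.51%) were in at least 2 libraries other than by the pair LNP-P20-mAb 1 and 2 alone, beside 8.11% of 8581 chains with other TRAJ. The share was 8.71% for TRAJ48 and 8.71% for TRAJ49, 6.77% for TRAJ47, 5.47% for TRAJ40, 5.12% for TRAJ42, 4.88% for TRAJ43 and 4.57% for TRAJ45. The widest spread was that of the TRAV12 and TRAJ49 chain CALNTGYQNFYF, found in 4 libraries and 7 clonotypes with 7 different TRB chains. A TRAV12 and TRAJ48 chain, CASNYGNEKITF, was in 5 clonotypes of all 3 LNP-Ctrl libraries, and a TRAV7 and TRAJ47 chain, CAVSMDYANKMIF, likewise. A TRAV16 and TRAJ45 chain was in 7 clonotypes of 3 libraries with 7 different TRBV segments. For TRAJ40 and TRAJ43 the chains that recurred most were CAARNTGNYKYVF with TRAV14 and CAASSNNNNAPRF with TRAV10, each in 3 libraries and 3 clonotypes. For TRAJ42 it was a TRAV6 chain in 3 clonotypes of 3 libraries, 1 LNP-Ctrl and 2 LNP-P20-mAb. These 3 clonotypes had only 2 different TRB chains.

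In the profile of TRAV families 6 of the 7 segments were most like another of the 7, a count that was not made for other groups of TRAJ. Over 20 TRAV families, with distinct chains of all libraries summed, Pearson's r of log2 shares was 0.949 between TRAJ42 and TRAJ48 and 0.951 between TRAJ43 and TRAJ49, each the most like the other of 40 TRAJ compared. TRAJ45 was most like TRAJ43 (0.947), TRAJ47 most like TRAJ40 (0.940) and TRAJ40 most like TRAJ37 (0.974). TRAJ50, outside the 7, came second and close behind for TRAJ45 (0.945) and for TRAJ42 (0.938). For the remaining segments another of the 7 came second. The median r to all TRAJ was 0.749 to 0.871. All profiles share the abundance of the families in the locus, and these values are a description. The number of UMIs per TRA chain, a count of captured transcripts, differed between treatments for 0 of the 6 members tested in limma (0 below an unadjusted p of 0.05), with a background of 0% of 34 TRAJ (3 below an unadjusted p of 0.05) and centred log2 differences of -0.17 to 0.32.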

How the data were processed

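Assembled TCR chains of 6 libraries (3 per treatment) were used as the authors deposited them, with raw counts of UMIs and reads per chain. Cell Ranger 8.0.1 was used, per the submitters' processing notes, which list more than 1 mouse build, and coordinates are left out. The alignment settings are not given in the sources used here. Samples were grouped by their titles. Repeated chains on a barcode were counted once, and 1844 barcodes with 2 TRB chains and those without both chains were left out, which left 2016 to 3923 cells per library. Intervals are exact Clopper-Pearson at 95% and cover counting error only.

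Usage was tested on clonotype counts with edgeR 4.0.16 (quasi-likelihood, number of clonotypes as library size, segments with at least 30 clonotypes) in R 4.3.3, with the library as a block for expansion and for partners (TRAJ with at least 100 chains, expected count at least 10). A standard error is the log2 difference over the square root of F. Mean CDR3 length and centred log2 UMIs were tested with limma 3.58.1 (at least 5 chains per TRAJ and library), and cell shares with two-sided exact permutation tests. Benjamini-Hochberg adjustment ran over every feature of a test, at a threshold of 0.05. DESeq2 1.42.0, other filters and scalings, chain rules and left-out libraries were alternatives. The edgeR and limma fits were tested on simulated data. TRAV profiles used a pseudocount of 0.5.

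All 7 segments were named throughout, with the most frequent TRAV family and TRBV segment of each, every pair called (up to 4 per segment), the largest clonotype and any of 50 or more cells, the chain in most libraries, and the most like TRAJ. The clonotypes given as examples of 2 alpha chains were chosen after their values were seen. The segments and lists were chosen with earlier results of these data known.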

Additional observations from a re-analysis of the deposited data

Results flagged for a closer look

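Member chains also lay on barcodes outside the main comparisons. Of 3412 TRA contigs with the 7 segments, 230 were on barcodes with 2 TRB chains and 65 on barcodes without a TRB chain. Both counts are above the 3 that a count of 0 would allow, and they were set aside because such barcodes give no single TRB partner. Barcodes with 2 TRB chains entered the alternatives that kept them, for segment usage and cell shares between treatments, and those without a TRB chain entered no comparison. Contigs on barcodes with 2 TRB chains numbered 58, 62 and 47 for LNP-Ctrl, then 27, 7 and 29 for LNP-P20-mAb.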

How the results depend on the processing

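The comparisons rest on 3 libraries per treatment, of which LNP-P20-mAb 1 and 2 share clones, and on as few as 4 distinct chains per segment in a library, so differences in rare segments were often not detectable at this depth. Of 100 alternative counts of calls, 58 stayed within 1.5 times the reported count. Segment usage between treatments had 6 calls, and 2 with DESeq2, 2 with LNP-P20-mAb 1 and 2 pooled, 0 with cells counted and 2 to 14 without any 1 library. Usage by expansion had 4 calls, 0 with DESeq2 and 2 to 4 without any 1 library. TRAV partners had 14 calls, 9 with DESeq2, 27 with an expected count of 5, 6 with chains of 3 or more UMIs, 9 with cells of 1 TRA chain and 0 to 10 without any 1 library. The members had 5 calls among them, and 3 with DESeq2 (2 of the 5, and TRAJ47 with TRAV9), 3 with the pair pooled, 2 with chains of 3 or more UMIs and 0 to 3 without any 1 library. TRBV partners had 2 calls, 0 with DESeq2 and 0 to 4 without any 1 library. CDR3 length had 1 call, 0 with cells counted, 0 with the pair pooled and 0 to 1 without any 1 library. TRA UMIs had 0 calls, 1 without centring and 0 to 1 without any 1 library. Cell shares did not overlap for 16 TRAJ, and for 16 to 38 without any 1 library, the 38 without LNP-P20-mAb 3. The cause of these changes was not tested, apart from the fewer features and libraries that enter some of them.

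With cells counted in place of clonotypes, the usage estimates between treatments turned to -1.12 for TRAJ40, -0.83 for TRAJ45, -1.04 for TRAJ47 and -0.93 for TRAJ49, and the CDR3 length difference of TRAJ48 to -0.093. For TRAJ42 usage, DESeq2 gave 0.059 and TMM scaling 0.042. Without any 1 library the usage estimates ranged from -0.18 to 0.18 for TRAJ40, from -0.13 to 0.10 for TRAJ42, from -0.24 to 0.16 for TRAJ45 and from -0.58 to 0.31 for TRAJ48. The expansion estimate of TRAJ40 ranged from -0.51 to 0.0023, and the CDR3 length difference from -0.36 to 0.12 for TRAJ40 and from -0.086 to 0.33 for TRAJ49. None of these was called. Counting only the leading TRA chain of a clonotype, an alternative chosen after seeing the data, gave 7 calls between treatments and 3 by expansion, with 0 members called.

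Replicate numbers are shared between treatments, and the labels do not say that a number marks a shared batch. Deviations of segment usage from the treatment mean correlated at -0.070, -0.15 and -0.080 between libraries numbered 1, 2 and 3. Such values from noisy counts cannot exclude a pairing. With the replicate number as a block, usage between treatments had 4 calls, CDR3 length 1 and TRA UMIs 0, and cell shares moved the same way in all 3 numbered pairs for 22 TRAJ. The block changed no call of a member.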
